A study of Rattus norvegicus with 24 samples.

Results

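The 150 genes described here were those whose RNA level differed most between newborn littermates in the right cerebral cortex of Sprague Dawley rats. They were chosen by their measured spread. CPM, the count of a gene scaled to the same total of counts in every pup, was taken as log2(CPM + 0.5), the mean of each litter was subtracted, and the standard deviation (SD) of what remained was pooled over 6 litters with 18 degrees of freedom. The genes with the largest SD were kept from 11099 genes that had a mean of at least 5 CPM, lay outside chromosomes X, Y and MT and were not among 5 genes left out by the rule, of 26404 genes listed in all. The within-litter values of these genes are therefore a description and carry no test.

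RNA-seq was performed on 24 pups at postnatal day 0, with 4 pups (2 male and 2 female) from each of 6 dams. In the saline pump group, 12 pups came from 3 dams that had been anesthetized with isoflurane late in pregnancy and implanted with a pump filled with saline. In the spontaneous labor group, 12 pups came from 3 dams that were not handled. All pups of both groups were born by spontaneous delivery, and none of the dams of these groups received oxytocin. Dams, not pups, received the treatment, so that 3 litters stand behind each group. By their pup numbers, the 2 pups of a sex in a litter are separate animals, and nothing states that an animal was sequenced more than once. The paper's figure legend, however, gives n = 6 per condition from 3 litters each, against 12 pups per condition by the labels.

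Sprague Dawley rats are an outbred stock, in which littermates inherit different combinations of parental alleles. Pups of one litter share the dam, the pregnancy and the delivery. A cortex at birth holds mostly immature neurons, radial glia and early glial cells, together with vessels and blood, and in tissue RNA fewer cells of a type and less RNA per cell cannot be told apart. The within-litter SD takes in every difference between pups and between their libraries alike.

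The totals of gene counts ran from 12170547 to 19260066. The share of counts from mitochondrial genes lay between 4.74 and 6.44%. Gene symbols were in hand for 782 of the 11099 genes and for 5 of the 150, because they came from a shortened copy of a gene list that starts with the smallest p-values of the authors' own condition comparison. The genes with a symbol are therefore not a neutral sample, and a marker without one was not looked at. The other 145 are given by Ensembl identifier and by their position in Rnor_5.0. Of the 16 excitatory cortical neuron markers, 0 had an identifier in hand, so the labelled tissue was not checked against them. Among glial and vascular markers, Aqp4 (88.9 to 154 CPM), Vim (362 to 592 CPM) and Cldn5 (48.8 to 72.7 CPM) were counted in all 24 pups.

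The pooled within-litter SD of the 150 genes ran from 0.37 to 1.83 on the log2 scale with a median of 0.46. The median over the 11099 genes was 0.11. The 3 genes just inside the limit were ENSRNOG00000016275, ENSRNOG00000022006 and ENSRNOG00000031993, with an SD of 0.3676, 0.3673 and 0.3671. The 3 genes just outside were ENSRNOG00000003493, ENSRNOG00000014397 and ENSRNOG00000024114, with 0.3667, 0.3662 and 0.3626, so that the limit cuts a continuous range. Read support was moderate, with a median of 11.9 CPM per gene (5.05 to 1274.5 CPM) against 35.9 CPM over the 11099 genes. CPM is not scaled to gene length and is used here as read support. Counting error alone accounted for a median of 3.61% of the within-litter variance of the 150 genes (0.0504 to 17.7%) and for 32.5% over all 11099. The median exonic length was 1905 bases, against 2240 bases over all. The genes lay on every autosome, most often on chromosome 4 (17 genes, 2.62% of those that could be chosen there), chromosome 1 (16 genes, 1.13%) and chromosome 2 (16 genes, 2.17%).

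**Figure D1:**
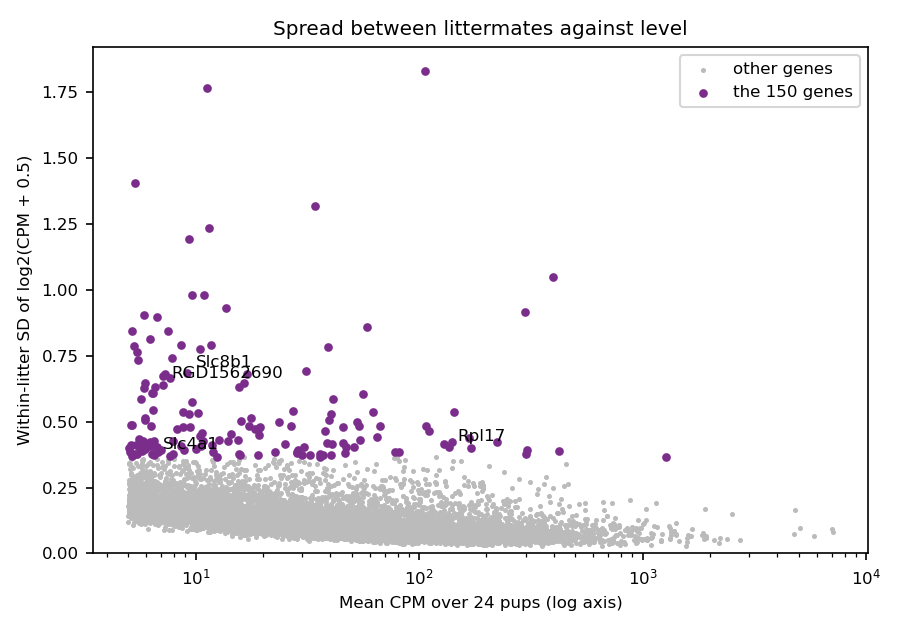
Pooled within-litter SD of log2(CPM + 0.5) against mean CPM over 24 pups (log axis), with 1 point for each of 11099 genes. The 150 genes (purple) run from an SD of 0.37 to 1.83, and most have a mean below 100 CPM.

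A few kinds of pattern recurred among the genes with the largest SD. In the first kind, a gene was far higher in 1 or 2 pups than in all others. ENSRNOG00000005124 (chromosome 6, 7731647 to 7830438) had the largest SD, 1.83. It measured 1186 CPM in female 2 of spontaneous labor litter 2 and 622 CPM in male 2 of spontaneous labor litter 1, and 8.73 to 90.6 CPM in the other 22 pups. Both high pups had littermates in the low range, since the rest of litter 2 lay between 8.73 and 19.7 CPM. ENSRNOG00000011207 (chromosome 10, 94237415 to 94239390) measured 263 CPM in female 1 of saline pump litter 1. Its next highest value was 3.23 CPM, in female 2 of the same litter, and no read was counted in several pups. The same female held the highest value of ENSRNOG00000012686, 70.7 CPM, which reached 7.002 CPM at most in the other 23 pups. ENSRNOG00000011568 (chromosome 1, 32115843 to 32198978) measured 125 CPM in female 1 of spontaneous labor litter 3 and 3.09 to 7.14 CPM in all others. These last 3 genes were, over all genes listed, the only ones with at least 5 CPM in one pup and 10 times the value of every other pup. Of the eligible genes within 500 kb of ENSRNOG00000005124 (7 genes), ENSRNOG00000011207 (18 genes) and ENSRNOG00000011568 (4 genes), 0 had a correlation with it above 0.5 or below -0.5 over the 24 pups. Over all pairs of the 11099 genes, 4.97% exceeded 0.5 and 4.58% fell below -0.5.

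In the second kind, the pups fell into separate levels. With levels defined as ranges of values parted by at least 0.7 on the log2 scale and at least 3 pups on each side, 10 of the 150 genes were stepped, against 12 of all 11099. A step between littermates raises the SD that chose the genes, so the 2 counts are not independent of the rule. ENSRNOG00000001556 (chromosome 3, 68939816 to 68961602) lay between 0.289 and 0.990 CPM in 11 pups, at 2.99 CPM in 1 pup, between 10.3 and 16.3 CPM in 7 pups and between 29.6 and 35.3 CPM in 5 pups. All 4 pups of saline pump litter 1 and of spontaneous labor litter 3 were at the upper levels, and all 4 of spontaneous labor litter 2 were at the lowest. Saline pump litter 2 and spontaneous labor litter 1 each held 2 pups at the lowest level and 2 at the level between 10.3 and 16.3 CPM. ENSRNOG00000005975 (chromosome 7, 73381072 to 73383965) had a low level of 1.49 to 3.79 CPM in 16 pups and a high level of 16.2 to 19.6 CPM in 8 pups. The high level was found in all 4 pups of spontaneous labor litter 1, in 3 of saline pump litter 3 and in 1 of saline pump litter 2. ENSRNOG00000004179 (chromosome 7, 44140236 to 44150124) lay between 17.8 and 28.7 CPM in 15 pups and between 48.8 and 79.2 CPM in 9 pups, and 5 of the 6 litters held pups at both levels. ENSRNOG00000029367 was at 0.0620 to 0.189 CPM in 3 of the 4 pups of spontaneous labor litter 2 and at 3.24 to 11.8 CPM in the other 21 pups.

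The only stepped gene with a symbol was Slc8b1 (ENSRNOG00000001383, chromosome 12, 43421507 to 43444143), which encodes the exchanger that moves calcium out of mitochondria against sodium. Its SD was 0.69, the largest among the named genes. It lay between 2.13 and 3.86 CPM in 11 pups and between 7.25 and 22.5 CPM in 13 pups. All 8 pups of spontaneous labor litters 1 and 3 were at the low level, and all 8 pups of saline pump litter 1 and spontaneous labor litter 2 at the high one. The remaining litters were mixed. In saline pump litter 2 the males measured 7.25 and 3.01 CPM and the females 14.1 and 10.1 CPM, and in saline pump litter 3 the males measured 3.86 and 14.8 CPM and the females 2.58 and 17.0 CPM.

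**Figure D2:**
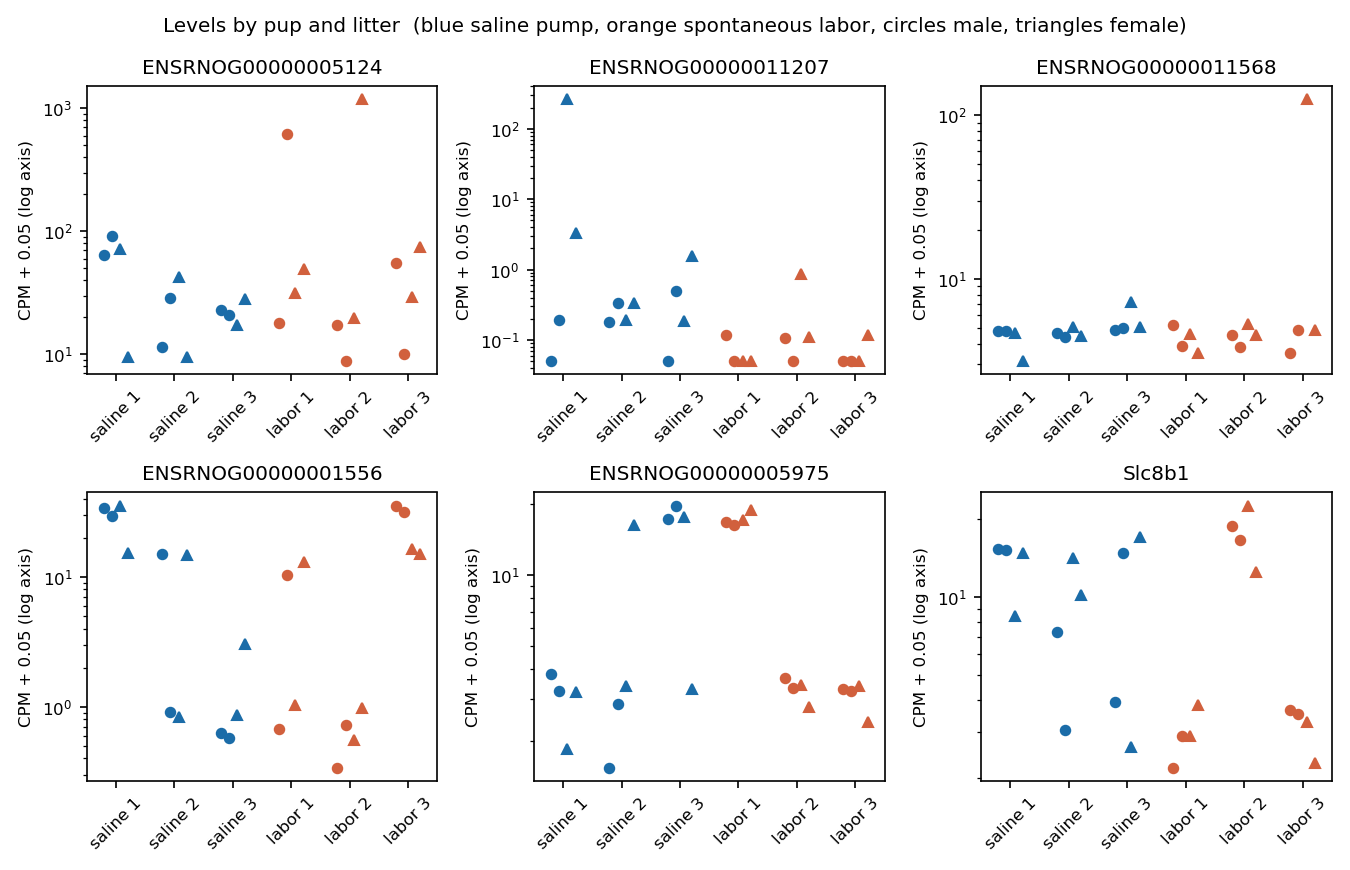
CPM of 6 genes in each of 24 pups (log axis, with 0.05 added so that zeros can be drawn), by litter, with saline pump litters in blue, spontaneous labor litters in orange, males as circles and females as triangles. In the upper row 1 or 2 pups stand far above the rest, up to 1186 CPM, and in the lower row the pups fall into separate levels that cut through some litters and not others.

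In the third kind, a gene was low in 1 or 2 pups. A gap of at least 1 on the log2 scale between neighbouring values of the 24 pups was present in 37 of the 150 genes and in 41 of all 11099 (0.369%). Such a gap between littermates also raises the SD that chose the genes. It set off a single low pup in 20 genes, a low pair in 10, a single high pup in 3 and a high pair in 1, with 3 or more pups on each side in the remaining 3. The single low pup was male 2 of spontaneous labor litter 2 in 8 genes and female 1 of saline pump litter 3 in 7 genes, and the low pair was made of these same pups in 5 genes. ENSRNOG00000021229 (chromosome 3, 129615610 to 129617588) measured 0.733 and 1.77 CPM in these pups and 17.6 to 44.4 CPM in the other 22. Its neighbour ENSRNOG00000021225 (129604822 to 129605662) measured 0.244 and 0.0680 CPM there and 6.46 to 13.4 CPM elsewhere. ENSRNOG00000028348 was at 0.244 CPM in the spontaneous labor male, at 7.004 CPM in the saline pump female and at 18.3 CPM in the highest pup. ENSRNOG00000049232 was at 46.8 CPM in the saline pump female but at 446 CPM in the spontaneous labor male, within a range of 99.3 to 512 CPM over the other pups. A different pair was low for ENSRNOG00000031207, with 34.6 CPM in male 1 of spontaneous labor litter 2 and 51.1 CPM in male 1 of saline pump litter 1, whereas 21 pups lay between 340 and 612 CPM and the saline pump female at 148 CPM. ENSRNOG00000017302 had no gap of this size and differed from pup to pup in most litters, with values from 0.0717 to 13.7 CPM. In spontaneous labor litter 3 alone, it measured 7.18 and 0.278 CPM in the males and 1.09 and 12.9 CPM in the females.

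Female 1 of saline pump litter 3 and male 2 of spontaneous labor litter 2 thus held much of the spread. They were the pup farthest from its litter mean for 45 and 52 of the 150 genes. Over all 11099 genes they were farthest for 13.4 and 9.72%. Male 1 and female 2 of spontaneous labor litter 2 were farthest for 12.6 and 9.49% of them. Female 1 of saline pump litter 3 and male 2 of spontaneous labor litter 2 carried 14.1 and 13.9% of the within-litter sum of squares of the 150 genes. The other 22 pups carried 1.07 to 6.69% each. Over all 11099 genes the same 2 pups carried 9.93 and 8.98%, also the largest shares, and the other 22 pups 2.61 to 6.96% each. Their libraries were not shallow, with 14706888 and 16380469 counts, and their mitochondrial shares of 5.48 and 5.35% were within those of the other 22. Of the 150 genes, 55 were below the litter mean in both pups, 30 above in both and 65 on opposite sides, 30 of them below in the spontaneous labor male alone. When both pups were left out and the ranking was repeated over 22 pups, 95 of the 150 genes were chosen again, 12 of the 15 with the largest SD among them.

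**Figure D3:**
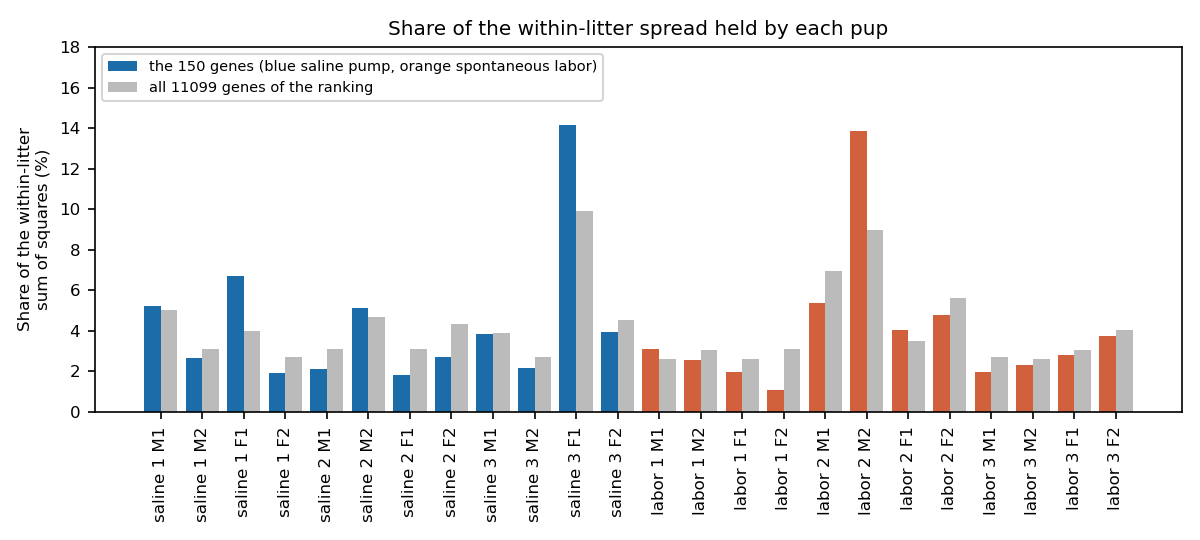
Share of the within-litter sum of squares held by each of 24 pups, in percent, for the 150 genes (blue saline pump, orange spontaneous labor) and for all 11099 genes (grey). Female 1 of saline pump litter 3 (14.1%) and male 2 of spontaneous labor litter 2 (13.9%) hold the tallest bars, and for the 150 genes no other pup exceeds 6.69%.

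Many of the 150 genes moved together. Over the 24 pups, the median absolute correlation between the within-litter deviations of 2 of these genes was 0.36, against 0.21 over all pairs of the 11099 genes, and 19.8% of their pairs exceeded 0.5, against 4.97%. These correlations are descriptions over 24 libraries from 6 litters. Without the 2 pups, the median was 0.33. Average linkage on 1 minus the correlation, with the tree divided at a height of 0.5, gave 7 groups of at least 5 genes that held 123 of the 150, while 11 genes were in smaller groups and 16 stood alone. None of the 5 genes with a symbol was in the 7 groups, so each group is given by its leading identifiers and by the genes with a symbol, outside the 150, whose deviations were most like it. Those outside genes were picked after their values were seen, and the likeness says nothing of shared function.

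Group 1 held 37 genes and was low in the same 2 pups. The mean deviation was -1.26 (log2) in the spontaneous labor male, where 36 of the 37 genes were more than 0.5 below the litter mean, and -1.02 in the saline pump female, where 29 were. In the other 22 pups it lay between -0.19 and 0.48. The leading genes were ENSRNOG00000008644 (chromosome 6), with 12.2 and 15.03 CPM in the 2 pups and a median of 31.3 CPM, and ENSRNOG00000019584 (chromosome 6), with 19.2 and 17.2 CPM and a median of 46.9 CPM. The group's mean correlation was 0.73 over 24 pups and 0.31 over 22, and 5 of its 37 genes were still among the most variable without the pups. The named genes most like it were Dact2, a regulator of Wnt and TGF-beta signalling (r = 0.84), Tpd52l1 (r = 0.81), Tmx2, a thioredoxin-related membrane protein (r = 0.80), and Hydin, a component of motile cilia (r = 0.79). Over 22 pups these correlations were 0.59, 0.66, 0.59 and 0.53. Dact2 itself changed less, with 8.24 and 8.30 CPM in the 2 pups and at most 14.7 CPM elsewhere.

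Group 2 held 32 genes. It was low in the saline pump female (-1.08), in male 2 of saline pump litter 2 (-0.79) and in male 1 of spontaneous labor litter 1 (-0.52). It was high in male 1 (0.58) and female 2 (0.55) of saline pump litter 3, littermates of the low female. A low pup lowers its litter mean, which raises the deviations of its littermates. ENSRNOG00000031136 (chromosome 2) led it, with 17.5 CPM in the saline pump female and a median of 41.1 CPM. ENSRNOG00000049232 came next, followed by ENSRNOG00000016147 (chromosome 1), with 53.4 CPM in that female and a median of 132 CPM. Its mean correlation was 0.70 over 24 pups and 0.67 without the 2 pups. The closest named gene was Ina, which encodes the neurofilament protein alpha-internexin (r = 0.92, and 0.89 over 22 pups). Ina had a within-litter SD of only 0.11, with 647 CPM in the saline pump female and 879 CPM at most. Trim16 (r = 0.79), Hexa, a lysosomal enzyme subunit (r = 0.76), and Aqp4, the astrocytic water channel (r = 0.74), followed. Over 22 pups their r was 0.76, 0.75 and 0.69. Aqp4 was not particular to group 2. It had r = 0.67 with group 1, -0.63 with group 4, -0.68 with group 5 and -0.32 to -0.01 with the rest. Vim, the other marker of astrocytes and radial glia with an identifier in hand, had r = 0.45 with group 2. A part of these cells in the result was not tested.

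Group 3 held 18 genes with a mean correlation of 0.84. It was low in male 2 of spontaneous labor litter 2 (-1.04) and in female 2 of spontaneous labor litter 3 (-0.65). It was high in the saline pump female (0.57), so that the 2 pups with the most spread stood at opposite ends. Female 1 of spontaneous labor litter 2, a littermate of the low male, was nearly as high (0.56). ENSRNOG00000019857 (chromosome 7) measured 16.2 CPM in the spontaneous labor male and 45.8 CPM in the saline pump female, its lowest and highest values. ENSRNOG00000006410 (chromosome 6) did the same, with 15.4 and 77.2 CPM. Prkca, a protein kinase C (r = 0.86), Gucy1b1, a subunit of the nitric oxide receptor guanylate cyclase (r = 0.84), and Sp9, a transcription factor of inhibitory neuron precursors (r = 0.82), were the closest named genes. Over 22 pups their r was 0.72, 0.69 and 0.66. Sp9 was the only one of 16 inhibitory neuron markers with an identifier in hand, and its level was 19.7 CPM in the spontaneous labor male, the lowest of all pups, and 37.7 CPM in the saline pump female. Of 18 striatal neuron markers, 0 had an identifier, so the part of such cells was not tested. The immediate early genes Fosb (r = 0.80), Npas4 (r = 0.73) and Fos (r = 0.68), which neurons switch on when active, had high correlations with this group. The other 4 immediate early genes with an identifier in hand did not, with r = 0.23 for Dusp5, 0.08 for Ier3, -0.42 for Sik1 and -0.46 for Dusp4. The likeness was not particular to group 3. Fosb, Npas4 and Fos had r = -0.75, -0.70 and -0.71 with group 6, described below, and the other 4 genes -0.28 to 0.53. With group 4 the 3 genes had r = 0.64, 0.65 and 0.28, and the other 4 genes -0.21 to 0.00.

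Groups 4 and 5 were high in the saline pump female. Group 4 held 14 genes (mean correlation 0.75) and stood at 0.78 in that pup, with every one of the 14 genes more than 0.5 above the litter mean, and at -0.65 in male 1 of saline pump litter 1. ENSRNOG00000002418 (chromosome 13) led it, with 118 CPM in the saline pump female, the highest value, and a median of 71.6 CPM. The closest named gene was Nr2f1, a transcription factor of cortical area patterning (r = 0.76), and the most opposite Nnt, the mitochondrial transhydrogenase (r = -0.78). All 14 genes were chosen again without the 2 pups. Group 5 held 9 genes (mean correlation 0.84) and was high in male 2 of spontaneous labor litter 2 (0.74), male 2 of saline pump litter 2 (0.63) and the saline pump female (0.60). Its leading gene, ENSRNOG00000033134 (chromosome 2), measured 270.4 CPM in the first and 268 CPM in the last, with a median of 158 CPM, and ENSRNOG00000004423 (chromosome 13) came next, with 583 and 496 CPM and a median of 279 CPM. Mex3b, an RNA-binding protein (r = 0.79), and Sybu, a linker of cargo to kinesin in axons (r = 0.78), followed it. Dpp6, an auxiliary subunit of A-type potassium channels, ran against it (r = -0.91).

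Groups 6 and 7 were smaller. Group 6 (7 genes, mean correlation 0.70) was high in male 2 of spontaneous labor litter 2 (1.00) and in female 2 of spontaneous labor litter 3 (0.68), the pups in which group 3 was low. ENSRNOG00000005964 (chromosome 5) measured 149 CPM in that male against a median of 67.9 CPM. Cxcr4, a chemokine receptor of migrating neurons, was the closest named gene (r = 0.64), and Sp9 and Prkca ran against the group (both r = -0.77). Over 22 pups these were 0.55, -0.53 and -0.56. Group 7 (6 genes, mean correlation 0.62) was low in male 1 of spontaneous labor litter 2 (-1.45) and male 1 of saline pump litter 1 (-1.11). It was high in male 2 of spontaneous labor litter 2 (0.93), where all 6 genes were more than 0.5 above the litter mean. ENSRNOG00000049649 (chromosome 17) led it, with 0.694 and 1.04 CPM in the 2 low pups and a median of 5.62 CPM, followed by ENSRNOG00000031207, described above. Gfod2 was the closest named gene to group 7 (r = 0.76). Sumf1 (r = -0.76), Rfc3 (r = -0.75) and Lmo4, a cofactor of transcription in the cortex (r = -0.71), ran most against the group. Over 22 pups, the named genes given as like groups 4, 5 and 7 had r of 0.71 to 0.74. Those given as running against them had -0.69 to -0.87. Within the saline pump pups alone the mean correlation of the 7 groups lay between 0.49 and 0.92, and within the spontaneous labor pups alone between 0.52 and 0.90.

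**Figure D4:**
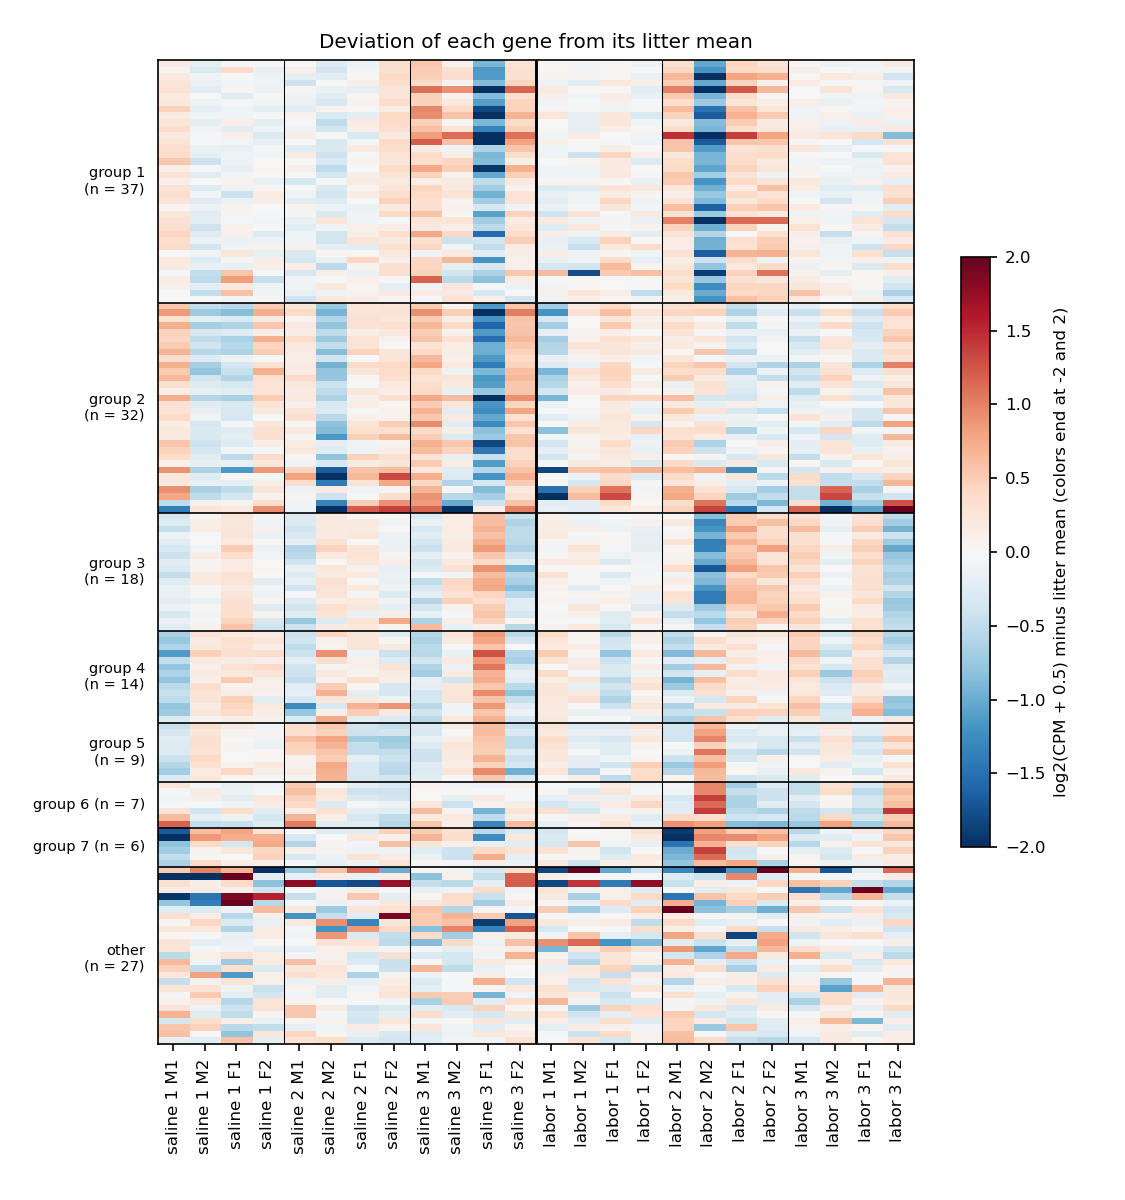
Deviation of the 150 genes (rows, by co-moving group) from the litter mean in 24 pups (columns, litters parted by lines), on the log2 scale, with colors ending at -2 and 2. Group 1 (37 genes) is low in female 1 of saline pump litter 3 and male 2 of spontaneous labor litter 2, and group 3 (18 genes) is low in that male and high in that female.

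**Figure D5:**
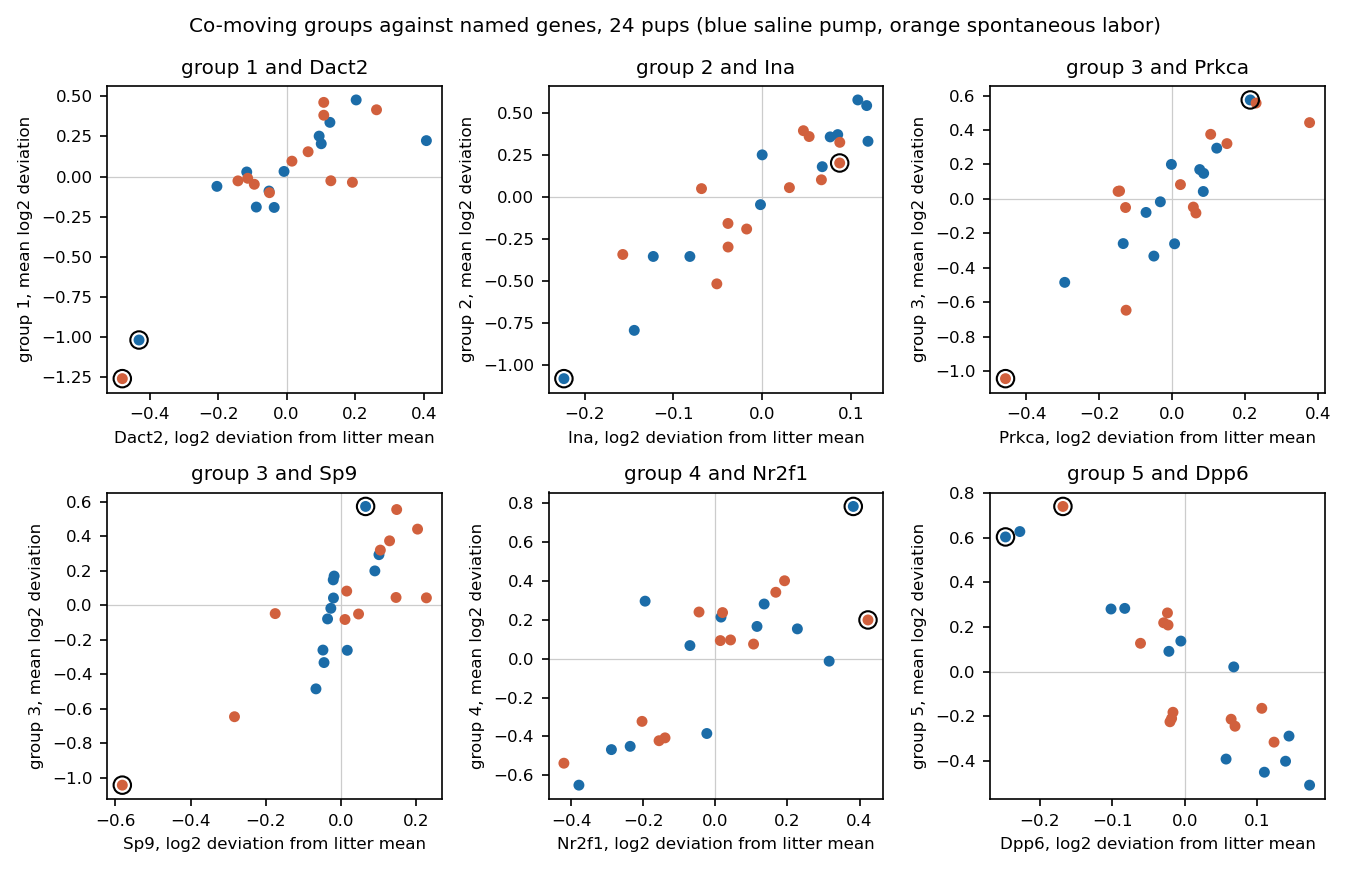
Mean log2 deviation of a co-moving group (vertical axis) against the deviation of one named gene outside the 150 (horizontal axis) in 24 pups, with the 2 pups of the largest spread circled. Points for group 2 and Ina (r = 0.92) follow one line, points for group 5 and Dpp6 (r = -0.91) a falling one, and for group 1 and Dact2 the 2 circled pups stand apart from the rest.

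The remaining named genes were not in these groups. Slc4a1 (ENSRNOG00000020951, chromosome 10, 90084741 to 90101181), the anion exchanger of red blood cells, was the only one of the 150 in a marker list, with 3.28 to 10.7 CPM and an SD of 0.37. Of 18 erythroid markers, 4 had an identifier in hand, and only Slc4a1 among them could be chosen by the rule. Ahsp, the chaperone of alpha globin, followed Slc4a1 between littermates (r = 0.75), but Alas2, the heme synthesis enzyme of red cells (r = 0.25), and Hba-a3 (r = 0.18) less so. None of these 4 was at 0 in any pup, with 0.854 to 3.61 CPM for Ahsp and 8.28 to 17.0 CPM for Alas2, and the part of blood left in the tissue was not tested. Rpl17 (ENSRNOG00000018680, chromosome 18, 70108978 to 70112081), a protein of the large ribosomal subunit, lay between 41.0 and 178 CPM with an SD of 0.40. Its lowest value was in female 1 of saline pump litter 1, whose littermates measured 97.6 to 157 CPM. The other 4 ribosomal protein genes with a symbol, Rpl5, Rpl31, Rpl41 and Rps27l, had an SD of 0.11 to 0.16 and a correlation with Rpl17 of 0.20 to 0.43. Ribosomal protein genes have many processed copies, and only uniquely aligned reads were counted, so the Rpl17 level is uncertain. ENSRNOG00000013766, within 500 kb of Rpl17 and outside the 150, moved against it (r = -0.81). RGD1562690 (ENSRNOG00000009373) was at 0.566 CPM in female 1 of spontaneous labor litter 2 and at 3.84 to 12.6 CPM in all others. AABR07029613.1 (ENSRNOG00000038478) was at 0.528 and 0.783 CPM in both females of spontaneous labor litter 1 and at 3.11 to 10.3 CPM elsewhere. The other lists held no gene of the 150, but their markers were mostly without an identifier, and some with one could not be chosen by the rule. Of 7 immediate early genes with an identifier 3 could be chosen, of 3 endothelial genes 2 and of 3 microglial genes 1. The hypoxia, stress, dividing cell, oligodendrocyte and muscle lists had 1 such gene each. With so few to choose from, the count of 0 members describes only these genes.

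In 11 pairs (22 genes), genes of the 150 lay within 500 kb of each other, and 5 of these pairs had a correlation above 0.5. Over all pairs of the 150 genes, near or far, 19.8% exceeded 0.5. ENSRNOG00000014644 and ENSRNOG00000014871, divergent genes 13.4 kb apart on chromosome 8, had r = 0.98 (0.93 without the 2 pups). ENSRNOG00000021225 and ENSRNOG00000021229, 9.95 kb apart on chromosome 3, had r = 0.98 (0.68 without them). ENSRNOG00000017689 and ENSRNOG00000026914, 341 kb apart on chromosome 16, had r = 0.84 (0.43 without them). Slc8b1 and ENSRNOG00000001392, 68.9 kb away, had r = 0.53 (0.22 without them). In 4 pairs the neighbours moved against each other, most so ENSRNOG00000014867 and ENSRNOG00000015353 on chromosome 2 (r = -0.67). For 9 of the 150 genes the annotated span overlaps that of another gene.

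Most of the 150 genes differed between pups more than between litters. The share of variance between litters of one condition had a median of -0.05 (an estimate that can fall below 0) against 0.32 over all 11099 genes. It exceeded 0.5 in 5 of the 150, the stepped genes ENSRNOG00000001556 (0.74), ENSRNOG00000005975 (0.69), Slc8b1 (0.66) and ENSRNOG00000029367 (0.66), and ENSRNOG00000031041 (0.65). Over all 11099 genes, 29.0% exceeded 0.5, so most of those also differed more between pups than between litters. A large within-litter SD lowers the share of variance between litters, and the rule chose on that SD. The median within-litter SD of the 150 genes was 0.60 in spontaneous labor litter 2 and 0.56 in saline pump litter 3, the litters of the 2 pups, and 0.25 to 0.33 in the other 4. The female minus male difference had a median size of 0.15 (log2), against 0.04 over all 11099 genes. Differences between the sexes of a litter are part of the SD on which the rule chose, so the larger size is no separate result. The difference had the same sign in all 6 litters for 1 of the 150 genes, ENSRNOG00000017669 (0.15, with mean log2 values of 2.88 in females and 2.73 in males), and for 5.85% of all 11099 genes.

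Whether genes that vary among littermates in one condition also do so in the other was examined by ranking each condition alone. Of the 150 genes with the largest SD in the saline pump litters, 72 (48.0% of each list) were also among the 150 in the spontaneous labor litters. The saline pump list had a median SD of 0.36 in the spontaneous labor litters, where the median over all 11099 genes was 0.11, and 125 of its 150 genes lay above the 90th percentile there. The spontaneous labor list had a median SD of 0.37 in the saline pump litters, with 130 genes above the 90th percentile and 3 below the median. The genes of each list were ranked on pups of one condition and measured on pups and dams of the other.

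The study compared the conditions to learn whether anesthesia and surgery of the dam alter the newborn cortex. This comparison was made on counts summed over the 4 pups of each litter, 3 against 3, so that the litter is the replicate. A single pup far from its littermates still weighs on its litter's sum. The sums therefore hold part of the spread that chose the genes. A larger share of small p-values among these genes cannot be told apart from that choice. Of the 150 genes, 149 passed the filter of more than 1 CPM in at least 4 pups, the exception being ENSRNOG00000011207. With the quasi-likelihood test of edgeR and p-values adjusted by Benjamini-Hochberg over 14348 genes, 0 of the 149 had an adjusted p of at most 0.05, with 0% called over all genes. At an unadjusted p under 0.05 there were 13 of the 149, or 8.72%, where all tested genes gave 1.67%. This order held in 1 of 4 fits over single pups, by edgeR with surrogate variables (11.4 and 8.38%). With condition and sex as terms the members gave 8.05% and all tested genes 10.6%, with a block for sex and pup number 5.37 and 9.63%, and by limma with surrogate variables both gave 10.7%. In spontaneous labor 6 of the 13 had the higher level (0.795% of all tested genes) and 7 the lower (0.878%). The litter means did not overlap in 2 of the 149, a smaller share than the 6.13% of all tested genes. Both were lower in spontaneous labor, as were 3.19% of all tested genes, while 0 were higher, against 2.94%. These were ENSRNOG00000023340, with a log2 fold change of -0.29 (SE 0.12), and ENSRNOG00000012759, with -0.25 (SE 0.15), and neither passed the adjusted threshold. The log2 fold change (spontaneous labor minus saline pump) had a median of -0.01 and a median size of 0.09 over the 149, against 0.00 and 0.06 over all tested genes.

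The smallest p belonged to ENSRNOG00000005124, with a log2 fold change of 2.32 (SE 0.60, unadjusted p = 0.00312, adjusted p = 1.00, edgeR). The sums of 2 spontaneous labor litters each held a pup of 1186 or 622 CPM. Its litter means of log2(CPM + 0.5) were 5.502, 4.29 and 4.49 in saline pump and 6.02, 5.48 and 5.08 in spontaneous labor litters, which overlapped. It changed sign to -0.06 by limma over 24 pups with surrogate variables. ENSRNOG00000013330 was lower in spontaneous labor by the fit, at -0.49 (SE 0.15, unadjusted p = 0.00740, adjusted p = 1.00), with litter means of 6.02, 5.48 and 5.98 against 5.53, 5.32 and 5.48. ENSRNOG00000015616 had 0.49 (SE 0.17, unadjusted p = 0.0176, adjusted p = 1.00), with 2.82, 2.76 and 2.88 against 3.66, 2.81 and 3.30. ENSRNOG00000011568 stood at 1.62 (SE 0.69, unadjusted p = 0.0409), and at -0.13 without spontaneous labor litter 3, which held its single high pup. Slc8b1 had -0.42 (SE 0.57, adjusted p = 1.00), and leaving out a litter moved it from -0.02 without spontaneous labor litter 1 to -1.84 without spontaneous labor litter 2. Slc4a1 had -0.32 (SE 0.16, adjusted p = 1.00) and Rpl17 0.17 (SE 0.14, adjusted p = 1.00). These last 3 genes have a symbol in hand because of their small p-values in the authors' comparison of the same pups, so their values are no independent evidence. None of these differences passed the adjusted threshold.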

How the data were processed

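Right cortices of 24 pups were profiled by RNA-seq. The authors aligned reads to Rnor_5.0 with STAR 2.0.4b and counted, for each Ensembl gene, the reads that aligned to one place without ambiguity, using featureCounts (version 1.45 per the submitters' processing notes). The strand setting was not given in the sources used here. The authors deposited counts without normalization, together with CPM (counts scaled to a common total) and RPKM (CPM per kilobase of exon). RPKM entered no result. CPM were recomputed from the counts and matched the deposited CPM. The labels gave condition, sex and pup number, and the litter was read from the identifiers in the authors' file list.

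Members were ranked in Python 3.11.15 (numpy 2.4.6, pandas 2.3.3, scipy 1.17.1, matplotlib 3.10.9) by the pooled SD of log2(CPM + 0.5) within litters. Members and gene lists were chosen with earlier results of these data known. Conditions were compared on counts summed per litter with edgeR 4.0.16 in R 4.3.3 (TMM factors, quasi-likelihood test, Benjamini-Hochberg adjustment, threshold 0.05), after keeping genes above 1 CPM in at least 4 pups. Litter sums were preferred to the authors' pup-level limma fit, because members were chosen by the spread between pups. The sums still hold part of that spread. Alternatives used limma 3.58.1, sva 3.50.0 (6 surrogate variables) and DESeq2 1.42.0. The ranking and the edgeR fit were tested on simulated data. Totals of 12170547 to 19260066 counts set the counting precision, and the 3 litters per condition set that of the comparison. No batch is given in the labels. Ribosomal genes were kept. The authors state that they left such genes out, yet their gene lists name Rpl17, Rpl5, Rpl31, Rpl41 and Rps27l.

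The text names the 15 members with the largest SD, 3 genes on each side of the limit, members of a marker list, leading members of co-moving groups, and those with the 3 smallest p-values. Symbols came from shortened copies of the authors' supplementary gene lists. These copies name 967 genes, those with the smallest p-values in the authors' condition comparison, and the rest of the lists was not used here. The rule allowed at most 4 genes without a symbol. That limit was set aside after the symbols were looked up, since 145 members have none, and only the first 1 to 3 leading members of each group are given. Other members and outside genes were named, and the gap and step sizes set, after values were seen. Sequences are not shown.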

Additional observations from a re-analysis of the deposited data

Results flagged for a closer look

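Within each litter of 4, the highest or lowest pup was compared with the rest, for the depth, the mitochondrial share, the share of the spread and the log2 level of the 15 genes with the largest SD and the 5 named genes. A pup whose gap to the nearest littermate exceeded the critical share of the litter's range (Dixon's value for 4 samples) was found in 32 of 138 sets. Chance alone gives about 1 set in 20, and genes chosen for their spread are not a fair sample of genes.

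Among whole-library measures, the total was high in male 1 of saline pump litter 1 (19260066 counts, littermates 13861808 to 14555341) and in male 1 of saline pump litter 2 (15451777 counts). The mitochondrial share was low in female 2 of spontaneous labor litter 3 (4.79%, littermates 5.05 to 5.09%). The share of the members' sum of squares was high in female 1 of saline pump litter 3 (14.1%) and male 2 of spontaneous labor litter 2 (13.9%).

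Female 1 of saline pump litter 3 was also set apart by low levels of ENSRNOG00000021229 (1.77 CPM), ENSRNOG00000021225 (0.0680 CPM), ENSRNOG00000028348 (7.004 CPM), ENSRNOG00000049232 (46.8 CPM) and ENSRNOG00000010053 (6.26 CPM), and by a high level of ENSRNOG00000011568 (7.14 CPM). Male 2 of spontaneous labor litter 2 was set apart by low levels of ENSRNOG00000021229 (0.733 CPM), ENSRNOG00000021225 (0.244 CPM), ENSRNOG00000028348 (0.244 CPM) and ENSRNOG00000010053 (15.5 CPM, littermates 72.8 to 74.1 CPM). Male 2 of saline pump litter 2 was low for ENSRNOG00000049232 (157 CPM), ENSRNOG00000003476 (1.29 CPM) and ENSRNOG00000010681 (0.143 CPM, littermates 6.35 to 10.5 CPM).

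Single high pups were female 2 of spontaneous labor litter 2 for ENSRNOG00000005124 (1186 CPM), female 1 of spontaneous labor litter 3 for ENSRNOG00000011568 (125 CPM) and male 2 of the same litter for ENSRNOG00000024181 (13.8 CPM, littermates 3.52 to 3.84 CPM). ENSRNOG00000011207 was flagged at levels near 0 in spontaneous labor litters 1, 2 and 3 (0.0689, 0.817 and 0.0673 CPM). Single low pups were found for ENSRNOG00000005124 (9.41 CPM) and ENSRNOG00000011568 (3.09 CPM) in female 2 of saline pump litter 1, for ENSRNOG00000031207 in male 1 of saline pump litter 1 (51.1 CPM) and male 1 of spontaneous labor litter 2 (34.6 CPM), for ENSRNOG00000046170 in male 1 of spontaneous labor litter 2 (2.60 CPM), for ENSRNOG00000003476 in male 1 of spontaneous labor litter 1 (0.895 CPM), for Slc8b1 in female 1 of saline pump litter 1 (8.37 CPM) and for Rpl17 in female 1 of spontaneous labor litter 1 (87.8 CPM).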

How the results depend on the processing

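The count of 0 members past the adjusted threshold held in all 14 alternatives, which were the replicate block by litter number (0 members), the replicate block by sex and pup number (0), pup-level fits with surrogate variables by edgeR and limma, a pup-level fit with sex, DESeq2, no filter on low counts, litter sums without each litter (0 to 0) and, chosen after seeing the data, litter sums without the 2 pups of the largest spread. Of all tested genes, 11 were called by limma with surrogate variables, 1 by edgeR with surrogate variables and 0 in every other alternative. So few were called in all that the 0 members do not set them apart. At an unadjusted p under 0.05 the alternatives gave 8 to 19 members, against 13. The members' share (6.04 to 12.7%) exceeded that of all tested genes (1.21 to 3.65%) in every fit on litter sums, but among the pup-level fits it did so only by edgeR with surrogate variables (11.4 against 8.38%). It was level with it by limma (10.7%) and below it with condition and sex (8.05 against 10.6%) and with the block for sex and pup number (5.37 against 9.63%). As stated above, the litter sums hold part of the spread that chose the members. The litter numbers pair no samples: the deviations of same-numbered litters had correlations of -0.15, 0.11 and -0.15. Direction of the log2 fold change differed from the one reported in 35 checks of named genes and not in 259, with 0 of them called.

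Of the 150 members, 150 were chosen again with TMM-scaled CPM, 118 to 149 without any single pup, 119 to 143 without any single litter, 109 and 112 within saline pump and spontaneous labor litters alone, and 132 with the sexes centred separately. A minimum of 1 CPM left 73, since low genes entered, a minimum of 10 CPM left 86, since members below it were removed, and leaving out both pups left 95. The standard error of the log2 fold change had a median of 0.13 over the members and 0.09 over all tested genes. The size of difference that 3 litters per condition could show for these genes was not tested.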
